A study of Homo sapiens with 6 samples.

Results

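Distal 22q13, the last stretch of the long arm of chromosome 22 before the telomere, was examined for the ubiquitylated form of the histone variant H2A.Z in HEK293T, an immortalised line from human embryonic kidney. Overlapping or touching peaks of the ubiquitylated and the total H2A.Z list were merged, and the 1500 merged regions with an hg19 midpoint in chr22:46500000-51310000 (4.81 Mb), of 198179 in all, were kept. The span was chosen by the authors' differential calls, since it holds the genome's longest series, by number, of differential regions in 1 direction, so the calls are described here without a test. Of its 1500 regions, 337 were higher in ubiquitylated H2A.Z and 40 were higher in total H2A.Z.

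All cells carried the same pair of plasmids, H2A.Z-1 with a C-terminal Flag-BirA fusion and ubiquitin with an N-terminal AviTag, mixed 3 to 1, and were harvested 48 hours after transfection. BirA, a biotin ligase, biotinylates the AviTag of ubiquitin brought close to the tagged histone. Ubiquitylated H2A.Z was recovered on streptavidin-agarose (2 samples), total tagged H2A.Z on Flag M2-agarose (2 samples), and histone H3 with an antibody (2 samples), after digestion of the nuclei with micrococcal nuclease for 30 minutes. The histone was expressed from a plasmid, and each form was recovered with its own reagent, so unequal recovery by streptavidin and Flag and unequal ubiquitylation cannot be told apart. The lists give peaks and regions with no counts and no values for single libraries. Read depth is therefore unknown and regions have neither levels nor an error of their own; the spread between replicates enters through the authors' irreproducible discovery rate (IDR) per peak and false discovery rate (FDR) per differential region alone. The labels do not say whether replicates came from separate cultures.

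H2A.Z replaces H2A in nucleosomes at promoters, enhancers and other regulatory sites. Its C-terminal tail can be monoubiquitylated by the RING-type ligases of Polycomb repressive complex 1, and this form is known from facultative heterochromatin such as the inactive X chromosome. Distal 22q13 is a subtelomeric stretch known for the terminal deletions of Phelan-McDermid syndrome, which remove SHANK3, a scaffold protein of excitatory synapses. In the RefSeq annotation of GRCh38.p14, 50 protein-coding genes follow each other on this arm from PPARA, a nuclear receptor of fatty acid metabolism, to RABL2B. Only 2 of them, the unnamed locus LOC124905139 and TAFA5, which encodes a secreted protein of the brain, stand between TBC1D22A and BRD1, a bromodomain protein of histone acetyltransferase complexes. The other genes come on either side, 10 up to and including TBC1D22A and 38 from BRD1 onwards. That annotation is of another build than the peak lists, so the order of genes is background, and no region below was assigned to a gene or to an exon, intron or promoter.

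H2A.Z regions were unevenly spread over the span. In steps of 0.25 Mb from the centromeric limit, the first 3 bins held 51, 46 and 30 regions, and the bin from 47.25 to 47.5 Mb held 1. Regions then became frequent. The 5 bins from 48.75 to 50 Mb held between 131 and 141 regions each, 683 in all, which is 45.5% of the regions of the span in 26.0% of its length. Beyond 50 Mb the counts were 97, 64, 83, 35 and 43 per bin, and none lay past 51.25 Mb. The outermost region of chromosome 22 was chr22:51195008-51195714. The widest intervals free of any region were 177 kb (from 47330851 to 47507658) and 159 kb (from 47171190 to 47330542), and they were separated by a single region of 310 bp with a ubiquitylated peak only. The next widest was 132 kb, between 50780600 and 50912452. Over the whole span, wide intervals included, the median between neighbours was 681 bp, against 2161 bp over all merged regions. It was 1042.5 bp in the rest of chromosome 22. In the outermost 4.81 Mb of 10q and of 21q, described below, it was 685 and 567 bp.

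**Figure D1:**
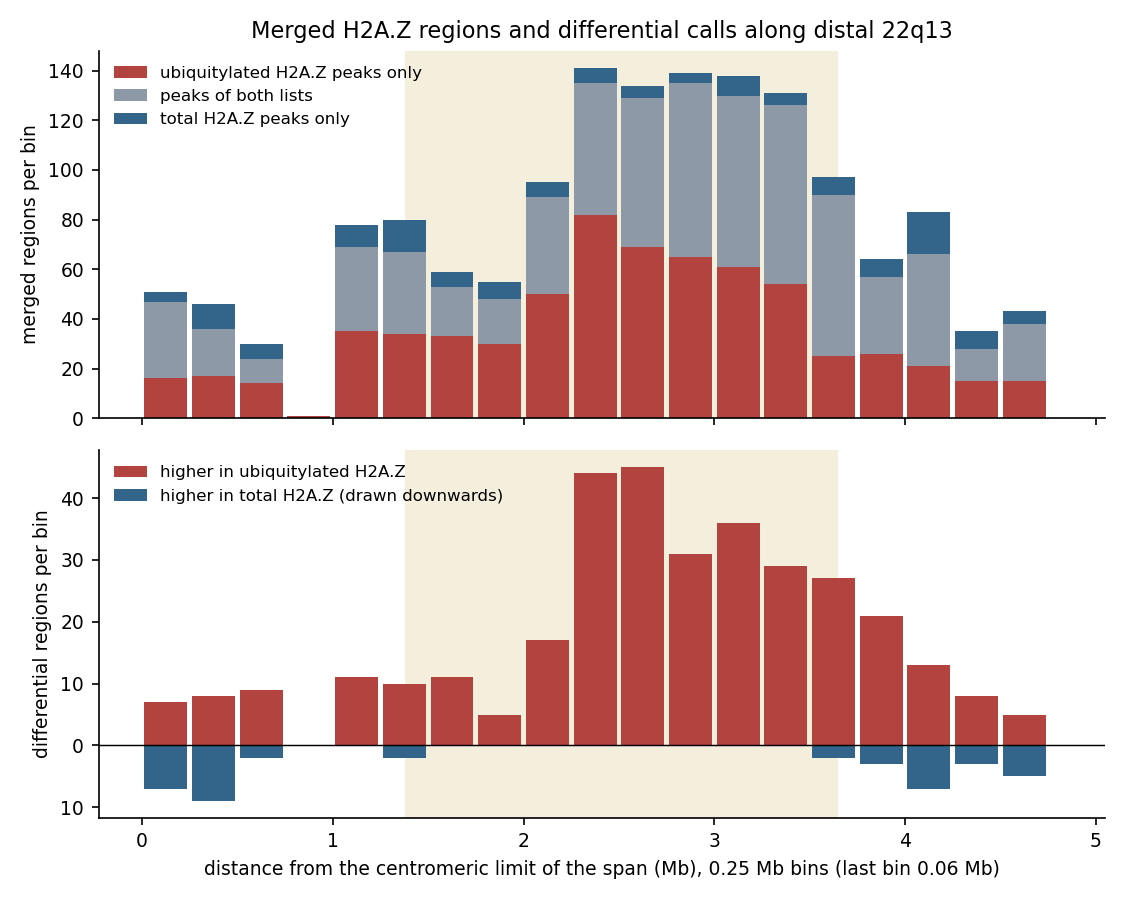
Merged regions per 0.25 Mb bin by the peaks they hold (top) and differential regions per bin (bottom, with those higher in total H2A.Z drawn downwards), against the distance from the centromeric limit of the span in Mb. The shaded part is the unbroken series of 248 regions higher in ubiquitylated H2A.Z; its 5 densest bins hold 131 to 141 regions each and no region higher in total H2A.Z.

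The span was rich in ubiquitylated peaks and poor in regions that held a total H2A.Z peak alone. It held 1411 ubiquitylated and 889 total H2A.Z peaks, a ratio of 1.59, where the ratio over the whole lists was 0.999. By bases, ubiquitylated peaks covered 729 kb of the span and total peaks 452 kb, a ratio of 1.61 against 1.04 over the whole lists. Of the 1500 merged regions, 663 (44.2%) held ubiquitylated peaks only, 705 (47.0%) held peaks of both lists and 132 (8.80%) held total peaks only. Over all merged regions 28.9% held ubiquitylated peaks only, 41.9% peaks of both lists and 29.2% total peaks only. The excess of ubiquitylated peaks thus went with a low share of regions with a total peak alone, while the share with peaks of both lists was closer to that of the genome. The kind of peak is tied to the calls that chose the span. Over all merged regions, 30.5% of those with total peaks only were higher in total H2A.Z, against 0.127% of those with ubiquitylated peaks only. The excess is therefore given as a description.

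Seen from each list, the overlap was lopsided. Of the ubiquitylated peaks, 748 of 1411 (53.0%) overlapped a total H2A.Z peak by at least 1 bp, and of the total peaks 757 of 889 (85.2%) overlapped a ubiquitylated peak. Over the whole lists the shares were 60.1% of ubiquitylated and 59.8% of total peaks. With unequal numbers of peaks in the 2 lists a difference in this direction follows from the counts, so the shares do not measure how alike the lists were. Total H2A.Z peaks numbered 185 per Mb of the span, against 153 per Mb in the rest of chromosome 22. Ubiquitylated peaks numbered 293 per Mb, against 142 per Mb. In the outermost 4.81 Mb of 10q and of 21q, described below, total peaks were denser than in the span, at 214 and 268 per Mb. Ubiquitylated peaks numbered 333 per Mb in that stretch of 10q and 319 per Mb in that of 21q.

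In the authors' deposited table, 337 regions of the span (22.5%) were higher in ubiquitylated H2A.Z, where 9.39% of all merged regions were, and 40 (2.67%) were higher in total H2A.Z, where 12.1% of all merged regions were. The remaining 1123 regions (74.9%) were in neither differential list, where 78.5% of all merged regions were. A call in either direction was listed for the other 377 regions of the span and for 21.5% of all merged regions. The share called in either direction was thus near that of the whole. With an FDR under 0.01, 182 (12.1%, against 5.16% of all regions) were higher in ubiquitylated and 20 (1.33%, against 7.09%) higher in total H2A.Z. Since the span was chosen for the direction of these calls, nothing is read from the gap to the whole. Calls towards ubiquitylated H2A.Z made up 89.4% of the differential regions of the span and 43.7% of all differential regions.

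The calls are given next by the peaks a region held, with the shares over all regions of that kind; as the span was chosen by these calls, nothing is read from the gaps here either. Where ubiquitylated peaks stood alone (663 regions), 205 (30.9%) were higher in ubiquitylated H2A.Z, against 23.8% of all such regions, and none was higher in total H2A.Z, against 0.127%. Where both lists had a peak (705 regions), 131 (18.6%) were higher in ubiquitylated H2A.Z, against 5.97% of all such regions, and 17 (2.41%) were higher in total H2A.Z, against 7.52%. Of the 132 regions with total peaks only, 23 (17.4%) were higher in total H2A.Z, against 30.5% of all such regions. A single region with a total peak only (0.758%, against 0.0831% of all such regions) was higher in ubiquitylated H2A.Z. It was chr22:49058290-49058690, with a log2 fold change of 0.63 and an FDR of 0.027 in the authors' deposited table. Regions detected in both pull-downs made up 38.9% of those higher in ubiquitylated H2A.Z here, against 26.7% in all.

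Single changes were modest in size. The 337 regions higher in ubiquitylated H2A.Z had a median log2 fold change (ubiquitylated over total) of 0.61 in the authors' deposited table, with quartiles of 0.49 and 0.74 and a range of 0.33 to 1.95. The median over all regions in that direction was 0.68. A change of at least 2-fold was listed for 32 of the 337 (9.50%), which is 2.13% of the regions of the span against 1.47% of all merged regions, and each of these 32 held a ubiquitylated peak only. Over all regions higher in ubiquitylated H2A.Z 15.6% reached 2-fold. The base of the fold changes is not stated in the files; they were read as log2 because edgeR, which writes that scale, is listed in the submitters' processing notes. The 40 regions higher in total H2A.Z had a median of -0.69 in the authors' deposited table (range -1.38 to -0.39), against -0.76 over all regions in that direction. Of these, 6 were at least 2-fold (0.4% of the regions of the span, against 2.39% of all). The calls of the span were thus mostly under 2-fold in both directions, as were those over all merged regions.

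**Figure D2:**
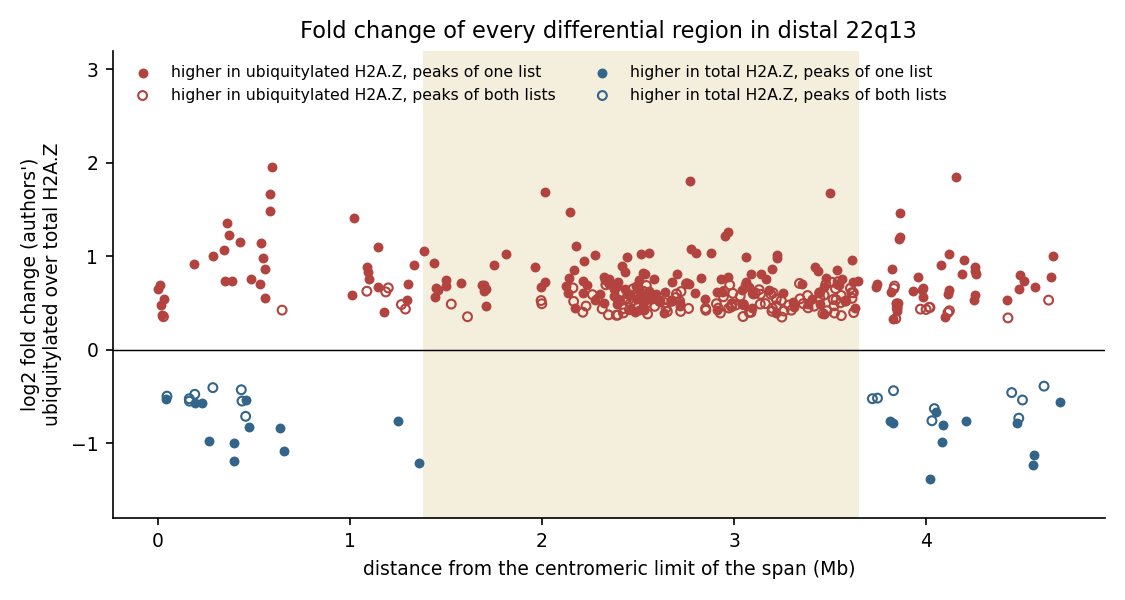
Log2 fold change of ubiquitylated over total H2A.Z from the authors' deposited table for each of the 337 regions higher in ubiquitylated and 40 higher in total H2A.Z, against the distance from the centromeric limit of the span in Mb; filled points hold peaks of one list, open points peaks of both. In the shaded part all 248 points lie above 0, and points below 0 lie on either side of it.

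The unbroken series held 248 regions higher in ubiquitylated H2A.Z from chr22:47884308 to 50143738, 2.26 Mb or 47.0% of the span. It took in 1000 of the 1500 merged regions (66.7%) and 73.6% of those higher in ubiquitylated H2A.Z. Its first member, chr22:47884308-47884634, had a log2 fold change of 1.06 (FDR 0.0009) and its last, chr22:50143319-50143738, one of 0.73 (FDR 0.013) in the authors' deposited table. It was ended on the centromeric side by chr22:47859882-47860038, a region of 157 bp that was higher in total H2A.Z (-1.22, FDR 0.0041, authors' deposited table) and lay 24.3 kb before it. On the telomeric side it was ended by chr22:50219797-50220569 (-0.52, FDR 0.013, authors' deposited table), 76.1 kb after it, which held peaks of both lists. Between these bounding regions 2.36 Mb passed with no region higher in total H2A.Z.

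Inside the series the calls were not evenly spaced. Members lay a median of 3.29 kb apart and at most 148 kb apart. The first 0.866 Mb, up to 48.75 Mb, held 236 merged regions, of which 38 (16.1%) were higher in ubiquitylated H2A.Z. The next 1.25 Mb, up to 50 Mb, held 683, of which 185 (27.1%) were, and both the number of regions per Mb (546 against 273) and the share called were higher there. The 250 kb bins with most calls were those from 48.75 to 49 Mb (44 of 141 regions) and from 49 to 49.25 Mb (45 of 134). These limits were set after the values were seen, and the share called did not fall at 50 Mb. The bin from 50 to 50.25 Mb, in which the series ended, held 97 regions. Of these, 27 (27.8%) were higher in ubiquitylated H2A.Z and 2, beyond the series, higher in total H2A.Z.

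Most regions of the series were in neither differential list. These numbered 752, of which 340 held ubiquitylated peaks only, 355 held peaks of both lists and 57 held total peaks only. The 58 regions with total peaks only were 5.80% of the series, against 29.2% of all merged regions. This share is tied to the calls that define the series. Where both lists had a peak (466 regions), 111 (23.8%) were higher in ubiquitylated H2A.Z, against 5.97% of all such regions. That none was higher in total H2A.Z, against 7.52% of all such regions, is fixed by how the series is defined. By the authors' deposited table, log2 fold changes had a median of 0.68 for the 136 members with ubiquitylated peaks only and 0.52 for the 111 with peaks of both lists.

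By number of regions the series was the longest of the genome. The next with a single direction towards ubiquitylated H2A.Z held 142 regions, once over chr10:132031057-133657659 (1.63 Mb) and once over chr8:142857444-143720209 (0.863 Mb). They were followed by 121 regions over chr5:1832617-5140920 (3.31 Mb) and by 106 regions at each of chr1:2839642-3444681 and chr1:3826947-6050350. By the authors' deposited table these 5 series had median log2 fold changes between 0.58 and 0.75, and that of the chromosome 22 series was 0.59. The length of the 22q13 series is what chose the span, and it is listed as a description.

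**Figure D3:**
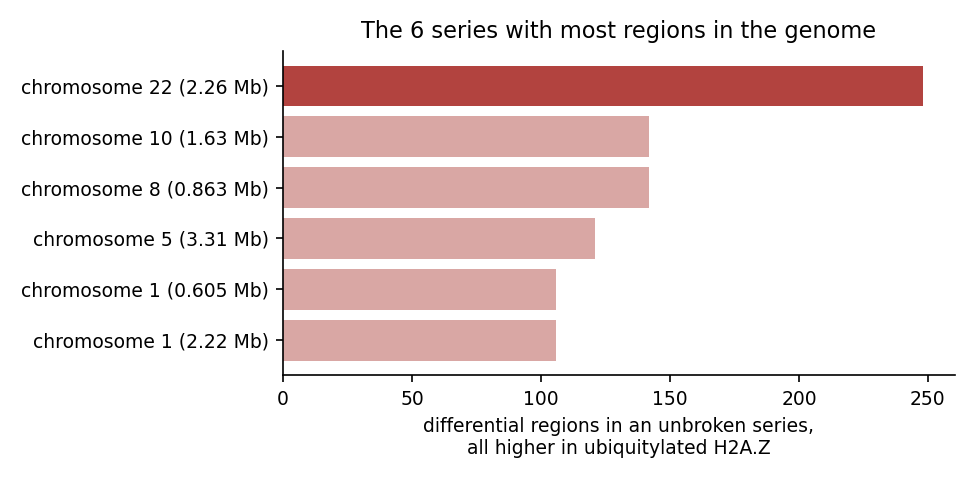
Number of consecutive differential regions higher in ubiquitylated H2A.Z, with none higher in total H2A.Z between them, for the 6 such series of the genome with most regions, with the length of each in Mb on the left. The series on chromosome 22 holds 248 regions and the next ones 142 each.

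The 10 regions with the lowest FDR among those higher in ubiquitylated H2A.Z all held a single ubiquitylated peak and no total peak. The first, chr22:50362501-50363240, lay beyond the series, with a log2 fold change of 1.46 and an FDR of 5.3e-11 in the authors' deposited table. Inside the series lay chr22:49466782-49467335 (1.25, FDR 3.8e-09) and chr22:48513098-48513396 (1.69, FDR 5.4e-08, authors' deposited table). Inside it were also chr22:49934306-49935433 and chr22:48646978-48647243. Telomeric of the series were chr22:50454416-50456168, chr22:50616970-50617983 and chr22:50753951-50755206. Centromeric of it were chr22:46929257-46929980 and chr22:47092035-47092436. The authors' deposited table gave these last 7 log2 fold changes between 0.77 and 1.95 and FDRs between 2.4e-07 and 9e-07. The most significant calls were therefore divided between the series (4) and its flanks (6), although the series held 73.6% of all calls in that direction.

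The largest fold changes were also spread over all parts of the span. In the authors' deposited table the highest log2 fold change, 1.95, belonged to chr22:47092035-47092436 (FDR 4.6e-07). After it the authors' deposited table listed chr22:50656873-50657262 (1.85, FDR 1.3e-06) and chr22:49272934-49273106 (1.81, FDR 0.0006), then chr22:48513098-48513396, given above, and chr22:49999006-49999275 (1.68, FDR 3.3e-06). These 5 regions were between 173 and 402 bp wide. Among regions that both lists share, the authors' deposited table gave the lowest FDRs towards ubiquitylated H2A.Z to chr22:49042126-49044406 (0.69, FDR 1.6e-06), chr22:50120311-50121833 (0.61, FDR 1.9e-05) and chr22:48918787-48920726 (0.60, FDR 2.9e-05). All 3 lay inside the series and were 2281, 1523 and 1940 bp wide, far wider than the regions of largest fold change.

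In both flanks of the series the directions were mixed. The centromeric flank (1.38 Mb, 259 regions) held 40 regions higher in ubiquitylated and 20 higher in total H2A.Z. The telomeric flank (1.05 Mb up to the last region, 241 regions) held 49 higher in ubiquitylated and 20 higher in total H2A.Z. Consecutive differential regions had the same direction in 42 of 59 pairs (71.2%) in the centromeric and in 44 of 68 pairs (64.7%) in the telomeric flank, against 72.5% over all such pairs of the genome. Regions higher in ubiquitylated H2A.Z were 15.4% of the centromeric and 20.3% of the telomeric flank, both above the 9.39% of all merged regions, and those higher in total H2A.Z were 7.72% of the centromeric and 8.30% of the telomeric flank, both below the 12.1% of all merged regions. Among regions with peaks of both lists, the centromeric flank held 7 higher in ubiquitylated (6.03%) and 8 higher in total H2A.Z (6.90%), and the telomeric flank 13 higher in ubiquitylated (10.6%) and 9 higher in total H2A.Z (7.32%), where 5.97% of all such regions were higher in ubiquitylated H2A.Z and 7.52% in total H2A.Z. In the series, which was chosen for having none of the second kind, the same count was 111 against 0.

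The regions higher in total H2A.Z lay singly or in short groups between ubiquitylated ones. They formed 22 runs, none longer than 5, and alternated with 22 runs higher in ubiquitylated H2A.Z, of which the longest after the series held 19. The distance from each of the 40 to the nearest region higher in ubiquitylated H2A.Z had a median of 11.6 kb, and 17 of the 40 had one within 10 kb. The distance to the nearest other region higher in total H2A.Z had a median of 9.45 kb, and 19 of the 40 lay closer to such a region. These distances were not computed over all regions higher in total H2A.Z. The closest such pair lay 1.08 kb apart between midpoints, chr22:50579499-50579652 (0.90, FDR 0.05) and chr22:50580525-50580777 (-0.99, FDR 0.0031, authors' deposited table).

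The 10 regions with the lowest FDR towards total H2A.Z were divided equally between the flanks. The first in the authors' deposited table was chr22:47158595-47159205 (-1.08, FDR 3.5e-06). It lay on the centromeric side of the 159 kb interval without regions. Then followed chr22:50517577-50517851, which had the strongest fold change of the 40 (-1.38, FDR 1.3e-05), and chr22:46971833-46972623 (-0.83, FDR 4.2e-05, authors' deposited table). The others were chr22:46956536-46957525, chr22:46895594-46895951, chr22:46896091-46896444, chr22:50981990-50983050, chr22:51058630-51058915, chr22:50587835-50588275 and chr22:51195008-51195714, the last region of the chromosome. Of these 10, chr22:50981990-50983050 (-0.73, FDR 4.8e-05) and chr22:46956536-46957525 (-0.71, FDR 5.4e-05, authors' deposited table) held peaks of both lists and the other 8 a total peak only. The next lowest FDR among regions with peaks of both lists in this direction, 0.0053, was shared by chr22:46546829-46547826 (-0.50) and chr22:46663967-46664784 (-0.55, authors' deposited table). The lowest FDR towards total H2A.Z was higher than each of the 10 given above for ubiquitylated H2A.Z. As the span was chosen for the direction of its calls, nothing is read from this.

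Regions of the span were wide. Their median width was 398 bp (quartiles 257 and 697 bp), against 313 bp (219 and 489 bp) over all merged regions, and 191 (12.7%) were at least 1000 bp wide, against 4.86% in the rest of the genome. Both lists contributed, with a median of 391 bp for ubiquitylated peaks (316 bp over the whole list) and of 396 bp for total peaks (310 bp). Within the span, regions higher in ubiquitylated H2A.Z had a median width of 622 bp, those higher in total H2A.Z 478.5 bp and those in neither list 356 bp. In the rest of the genome the medians were 505 bp where ubiquitylated H2A.Z was higher, 362 bp where total H2A.Z was higher and 295 bp for regions in neither list, so regions of the span were wider whatever their call. Of the 191 regions of at least 1000 bp, 88 (46.1%) were called towards ubiquitylated and 4 (2.09%) towards total H2A.Z, where 28.3% and 12.2% of all merged regions of that width were called towards ubiquitylated and towards total H2A.Z.

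**Figure D4:**
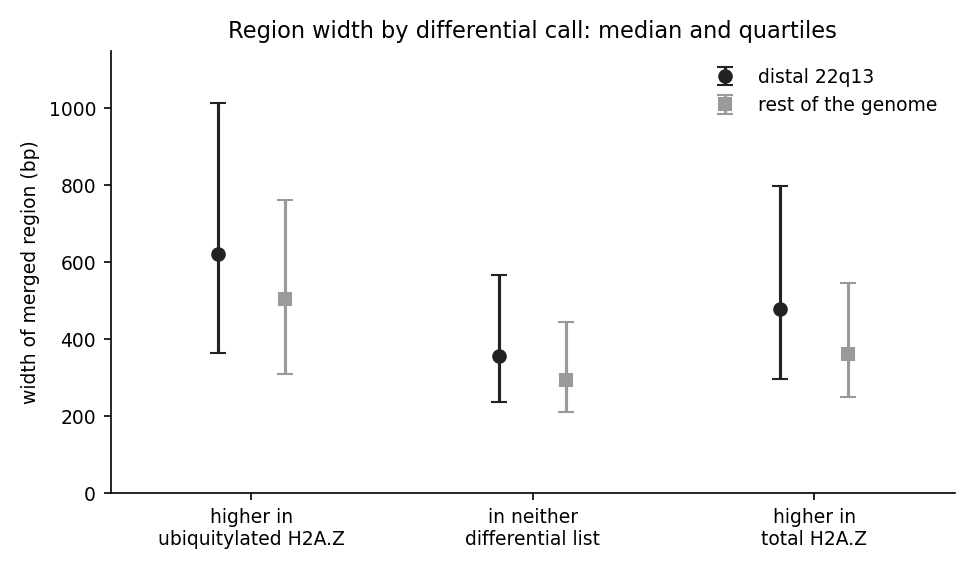
Width in bp of merged regions by differential call in distal 22q13 (circles) and in the rest of the genome (squares); points are medians and bars reach the quartiles. The medians of distal 22q13 are 622, 356 and 478.5 bp, above those of the rest of the genome for each call.

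Wide regions were called more often in the span and in the rest of the genome, so the share called was also compared within 5 width classes of equal size, set by the regions of the rest of the genome. Among regions over 546 bp, the widest class, 190 of 505 in the span (37.6%) were higher in ubiquitylated H2A.Z, against 21.3% in the rest of the genome. In the narrowest class, up to 203 bp, the shares were 7.22% of 180 regions in the span and 3.52% in the rest of the genome. In each of the 5 width classes the share higher in ubiquitylated H2A.Z was above, and the share higher in total H2A.Z below, that of the rest of the genome. Applied to the regions of the span by width class and by the peaks they held, the rates of the rest of the genome gave 244 regions higher in ubiquitylated H2A.Z, where 337 were listed, and 109 higher in total H2A.Z, where 40 were. Since the rule used these calls, this is a description as well.

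The 5 widest regions of the span were all higher in ubiquitylated H2A.Z, all held peaks of both lists, and had small fold changes. The widest, chr22:49150795-49154541, was 3747 bp long and held 1 ubiquitylated peak over 4 total peaks, with a log2 fold change of 0.41 (FDR 0.0012) in the authors' deposited table. The others were chr22:50340290-50343944, chr22:50468952-50472105, chr22:49577331-49580125 and chr22:49961485-49964142, from 3655 down to 2658 bp, with log2 fold changes of 0.33 to 0.43 in the authors' deposited table. In 3 of the 5 a single ubiquitylated peak was merged with 3 or 4 total peaks. Among the 131 shared regions higher in ubiquitylated H2A.Z, ubiquitylated peaks covered more bases than total peaks in 121, with medians of 913 bp for ubiquitylated and 617 bp for total peaks. In all 17 shared regions higher in total H2A.Z the total peaks covered more, with medians of 450 bp for ubiquitylated and 818 bp for total peaks. Among the 557 shared regions in neither differential list, ubiquitylated peaks covered more in 320 and total peaks in 232. Peaks and calls come from the same libraries, so the covered bases are no separate support for the calls.

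The authors' value per peak, for which a lower value means a more repeatable peak, was read as the IDR from its range and the name of the lists, and the kind of IDR (local or global) is not stated. It was close to that of the whole lists for ubiquitylated peaks and somewhat higher for total peaks. Its median was 0.00131 for ubiquitylated peaks of the span (0.00137 over the list) and 0.00444 for total peaks (0.00335 over the list). An IDR under 0.01 was listed for 1138 of 1411 ubiquitylated peaks (80.7%) and 618 of 889 total peaks (69.5%), against 83.1% and 74.1% over the whole lists. The 3 ubiquitylated peaks of lowest IDR in the span were chr22:50084114-50084525 (IDR 1.31e-07), chr22:49444438-49444766 (2.13e-07) and chr22:49280155-49280437 (2.52e-07). All 3 lay inside the series and overlapped a total peak, and only the region of the second was differential, with a log2 fold change of 0.57 and an FDR of 0.013 in the authors' deposited table. The 3 total H2A.Z peaks of lowest IDR in the span were chr22:50025585-50026233 (1.12e-05), chr22:50083011-50084528 (1.26e-05) and chr22:51195008-51195714 (1.59e-05). Of these the first and the second lay inside the series in regions of neither differential list, so the most repeatable total H2A.Z peaks of the span included sites within the ubiquitylated stretch. The third, the last region of the chromosome, was higher in total H2A.Z and is among the 10 of lowest FDR given above.

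Distal 22q13 was set beside the outermost 4.81 Mb of 10q and of 21q, counted back from the last merged region of each chromosome, and beside the rest of chromosome 22. No test was made between stretches, because the span was chosen for its calls and each stretch is a single case. The span held 312 regions per Mb, 10q 350, 21q 356 and the rest of chromosome 22 194. Regions higher in ubiquitylated H2A.Z made up 22.5% of those of distal 22q13, 23.7% of the 1685 of 10q, 16.3% of the 1714 of 21q and 7.72% of the 5891 of the rest of chromosome 22. Those higher in total H2A.Z made up 2.67% in distal 22q13, 1.42% in 10q, 5.48% in 21q and 13.4% in the rest of chromosome 22. These shares of distal 22q13 were nearer to those of the end of 10q than to those of its own chromosome. The 10q stretch holds the chromosome 10 series of 142 regions given above. Both stretches thus hold a long series towards ubiquitylated H2A.Z, and nothing is read from their likeness. The calls of 10q were the more one-sided of the pair, with 400 regions towards ubiquitylated and 24 towards total H2A.Z.

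The kinds of peaks differed between the stretches as well. Regions with ubiquitylated peaks only were 44.2% in distal 22q13, 41.9% in 10q, 28.8% in 21q and 23.0% in the rest of chromosome 22. The ratio of ubiquitylated to total peaks was 1.59 in distal 22q13, 1.56 in 10q, 1.19 in 21q and 0.925 in the rest of chromosome 22. Median region width was 398 bp in distal 22q13, 383 bp in 10q, 408.5 bp in 21q and 339 bp in the rest of chromosome 22. Neighbouring regions lay less than 1 kb apart in 59.5% of cases in distal 22q13 and likewise in 10q, in 64.5% in 21q and in 49.0% in the rest of chromosome 22. The 3 chromosome ends thus had close-set, wide regions in common, while 21q had a smaller share of regions with ubiquitylated peaks only.

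**Figure D5:**
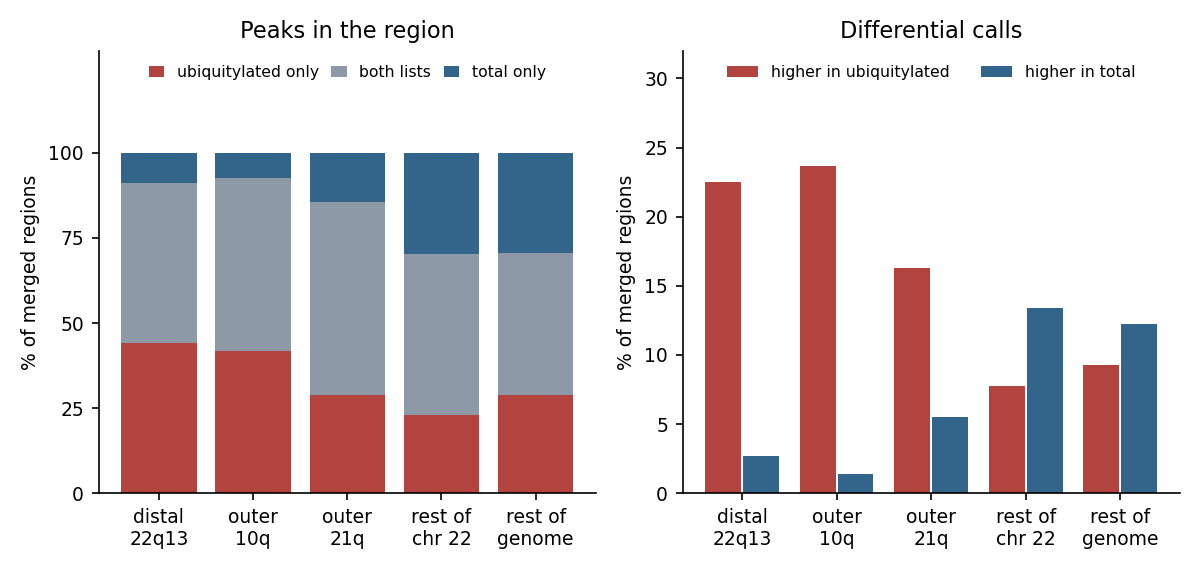
Share of merged regions by the peaks they hold (left) and by differential call (right) in distal 22q13, in the outer 4.81 Mb of 10q and 21q, in the rest of chromosome 22 and in the rest of the genome. The share higher in ubiquitylated H2A.Z is 22.5% in distal 22q13 and 23.7% in 10q, against 9.29% in the rest of the genome.

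The centromeric limit of the span did not coincide with a change in the calls. The pair of regions just inside it were chr22:46500330-46501026, higher in ubiquitylated H2A.Z (0.65, FDR 0.013, authors' deposited table), and chr22:46502584-46502758, in neither list. The pair just outside were chr22:46498623-46498969, in neither list, and chr22:46496415-46496733, higher in ubiquitylated H2A.Z (1.00, FDR 0.0038, authors' deposited table). All 4 held a ubiquitylated peak only. At the other end the last pair of the chromosome, chr22:51181113-51182137 (neither list) and chr22:51195008-51195714 (higher in total H2A.Z), lay inside the span and none lay beyond it.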

How the data were processed

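ChIP-seq was done on 6 samples in 3 groups of 2. The submitters' processing notes name Bowtie, SAMtools, MACS2 and edgeR, and hg19 as build, with no role, version or setting for any of them. Deposited by the authors were 2 peak lists with a value per peak of at most 0.05, read as a q-value-like IDR (local or global not stated), and 2 lists of differential regions with a log2 fold change of ubiquitylated over total H2A.Z and an FDR of at most 0.05. Neither the log base nor the normalization behind the fold changes is stated. The H3 libraries enter no comparison. Starts were shifted by 1 base to count from 1. Merging gave 198179 regions, and each of the 42574 differential regions equalled one of them. Shares and medians were computed with Python 3.11.15, numpy 2.4.6, pandas 2.3.3 and scipy 1.17.1, and figures with matplotlib 3.10.9. Merging, overlap and series finding were tested on simulated data. No count model was fitted and no test was made. Regions were named by a fixed rule on FDR, fold change, width, IDR and position. The span, lists and comparisons were chosen with earlier results of these data known. Gene context and CpG content were not analysed here.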

Additional observations from a re-analysis of the deposited data

How the results depend on the processing

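No paired analysis was possible because the files give no value for single libraries, which also prevents leaving out a replicate; gene starts and CpG content were not analysed here. Of 23 alternatives to 9 results, 5 kept the value, which means within 1.5 times for a count and within the 95% interval of the value otherwise. That interval treats the regions or peaks of this single span as independent, which neighbours need not be. It serves here as a yardstick for the alternatives and is no measure of spread between replicates. With an FDR under 0.01 the span held 182 regions higher in ubiquitylated (12.1% of its regions) and 20 higher in total H2A.Z, and its longest series held 133; at 2-fold or more these were 32, 6 and 19. Regions with peaks of both lists gave 131 (18.6%) and 17. Trimming 500 kb from each end left 313 regions higher in ubiquitylated and 16 higher in total H2A.Z. The share higher in ubiquitylated H2A.Z was 29.8% of regions wider than 313 bp and 9.56% of the others. This split was not made over all merged regions. In the rest of the genome the share also rose with width, from 3.52% in the narrowest to 21.3% in the widest of the 5 width classes. Shared ubiquitylated peaks were 41.8% at 50% overlap of both peaks and 43.4% under an IDR of 0.01, and shared total peaks 66.4% and 78.6%. The whole-list shares at these settings were not computed. The peak ratio under an IDR of 0.01 was 1.84 (1.12 over the whole lists). The stricter limits keep fewer regions by construction.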
